A study of Mus musculus with 12 samples.

Results

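Cytokine and growth hormone signalling through JAK kinases and STAT factors, together with the SOCS genes that limit it, was described here in fetal liver by 10 genes. The genes were taken by symbol from a table of 30743 genes, and all 10 were found: the receptor gene Ghr, the kinase genes Jak1 and Jak2, the transcription factor genes Stat3, Stat5a and Stat5b, and the feedback genes Cish, Socs1, Socs2 and Socs3. The livers came from male C57BL/6J fetuses at 15 ± 0.5 dpc, 6 from dams on the control diet (13.5 kcal% fat) and 6 from dams on the HFD (60 kcal% fat). The dams had been on their diet for 12 to 14 weeks, and the labels do not name the litters. Whole livers were sequenced as polyA-selected RNA, so a level is a mean over all cell types of the organ, and fewer cells of a type and less RNA per cell cannot be told apart. The value used for each gene is the authors' average level over all libraries, in CPM, counts scaled to a common library size. It pools both diets, has no SD and allows no comparison of HFD with control, which was not analysed here.

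In this pathway a cytokine or hormone brings its receptor chains together, the JAK kinases bound to them are activated, and STAT proteins are phosphorylated, pair and enter the nucleus. SOCS proteins and CISH are among the genes that STATs switch on, and they then bind the receptors or the JAKs and damp the signal. In fetal liver, erythropoietin acts on red cell precursors through JAK2 and STAT5, cytokines of the interleukin 6 family act on hepatocyte precursors through JAK1 and STAT3, and growth hormone acts on the adult liver through GHR, JAK2 and STAT5B.

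Because STATs switch on the feedback genes, the promoters were read for the sequence that STAT dimers recognise, TTCNNNGAA, which is its own reverse complement and was therefore searched on both strands at once. The windows run from 250 bases before to 50 after a gene's start in RefSeq on GRCm38.p6, and 9 of the 10 genes were matched, with 12 windows in all. The motif stood in 2 of the 12 windows, those of the feedback genes Cish and Socs3. Of all 32851 windows, 8.30% held it at least once and 0.457% held it more than once. The windows of Cish and Socs3 are shown because they hold the motif, which is in capitals, each read 5′ to 3′ on the strand of its gene.
Cish, chr9:107296409-107296708, plus strand: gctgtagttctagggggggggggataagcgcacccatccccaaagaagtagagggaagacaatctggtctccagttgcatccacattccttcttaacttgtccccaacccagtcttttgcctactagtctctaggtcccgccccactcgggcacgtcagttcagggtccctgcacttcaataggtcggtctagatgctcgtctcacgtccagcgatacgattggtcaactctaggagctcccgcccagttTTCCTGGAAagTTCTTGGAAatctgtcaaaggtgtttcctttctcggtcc
Socs3, chr11:117969317-117969616, minus strand: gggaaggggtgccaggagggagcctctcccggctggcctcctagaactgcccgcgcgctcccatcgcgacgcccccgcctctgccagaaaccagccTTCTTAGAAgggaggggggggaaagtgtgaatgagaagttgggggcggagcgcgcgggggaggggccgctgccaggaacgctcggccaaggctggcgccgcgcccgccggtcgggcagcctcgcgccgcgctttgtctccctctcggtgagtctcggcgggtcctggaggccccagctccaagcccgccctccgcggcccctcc
GENCODE M21 places the outer end of both genes further upstream, so both windows lie within the genes as it annotates them. The end of the Socs3 window was found in no GENCODE transcript of that gene. Base 251 of a window is the first base of the RefSeq start used. Cish held 2 copies, TTCCTGGAA from base 251 and TTCTTGGAA from base 262 of its window, the first at that start and the second past it. Socs3 held TTCTTAGAA from base 97, before it. The windows of Ghr, Jak1, Jak2, Socs1, Stat3, Stat5a and Stat5b did not hold these letters. A match is a description of the sequence, and binding of a STAT factor was not measured.

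Jak1 and Socs3 had the highest levels of the 10 genes, and the levels of the other 8 lay at 3.54 CPM or less. Jak1, the kinase shared by the interferon and interleukin 6 receptors, stood at 394 CPM, above 98.4% of the 19652 genes listed with reads. Socs3, the inhibitor of interleukin 6 family signalling, stood at 41.5 CPM, above 84.1% of them. Of the 10 genes, 7 reached 1 CPM and 2 reached 10 CPM, beside 33.1% and 18.0% of all 30743 genes. Of the genes with reads, 51.8% and 28.2% did, and of 49 further genes of the pathway, 55.1% and 36.7%. The levels are per gene, and they grow with the length of the transcript. Per kilobase of the longest coding transcript, after the prior count that edgeR adds was taken off, Jak1 and Socs3 were again first and second of the 10. They are also the only 2 of the 10 genes with a single transcript that GENCODE M21 links to RefSeq, which is taken up further on.

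**Figure D1:**
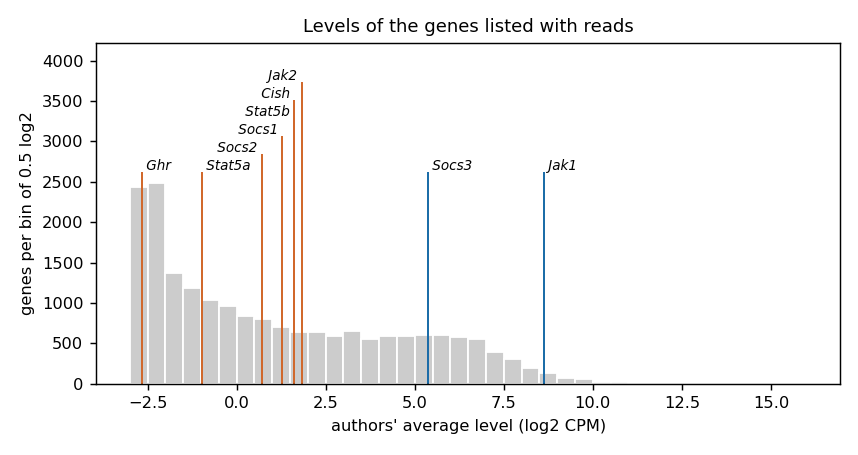
Histogram of the authors' average level (log2 CPM, bins of 0.5) for the 19652 genes listed with reads, with a line at the level of each described gene that had reads (blue, 1 transcript linked to RefSeq; orange, 2 or more). Jak1 and Socs3 stand in the upper part of the distribution, and the other 7 lie between the levels of Ghr and Jak2.

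The depth behind these levels was read from the genes without reads. The table lists 11091 genes at the same lowest value, 0.152 CPM, and the prior count of 2 that edgeR adds to every library by default then gives a mean effective library of 13129748 reads. The 1267 genes at the next step above the lowest value came to between 0.984 and 1.01 reads over the 12 livers. For each gene, reads are given here as estimates on this scale, with 95% exact Poisson intervals that cover counting error only and not the spread between livers, which the pooled values do not hold.

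Among the receptors, Ghr was listed with 0.994 reads over the 12 livers, which is the value of a single read, at 0.159 CPM. Its interval ran up to 0.0353 CPM after the prior count was taken off. The gene lies on chromosome 15 (3317760 to 3583492, minus strand; all positions are on GRCm38, the build of mm10). Per kilobase, Ghr stood at 0.00151 CPM, Epor, the erythropoietin receptor, at 127 CPM, and Il6st, the signalling chain shared by the interleukin 6 family, at 9.06 CPM. Of the 20 receptor genes on the list, 9 reached 1 CPM, beside 33.1% of all 30743 genes and 51.8% of those with reads. Il6ra, the chain that binds interleukin 6, was listed without reads. Of the receptors that act through the kinases described next, that of erythropoietin was listed far above that of growth hormone. Epor has 1 transcript linked to RefSeq and Ghr has 3, a trait taken up further on.

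Among the kinases, Jak2, which serves the erythropoietin and growth hormone receptors, had a level of 3.54 CPM, from 533 reads over the 12 livers. Jak1 rested on 62001 reads over the same livers. Per kilobase of the longest coding transcript, Jak1 stood at 80.2 CPM (95% interval 79.6 to 80.8) and Jak2 at 0.673 CPM (0.617 to 0.732). Jak3 and Tyk2, the other kinases of the family, were at 0.158 and 0.0723 CPM per kilobase. Jak1 lies on chromosome 4 (101152367 to 101265282, minus strand), where it overlaps Raver2 by 4 bases and the small nuclear RNA gene Gm24468 by 104 bases on the other strand, and the pseudogene Gm12785 by 172 bases on its own, and Jak2 on chromosome 19 (29251828 to 29313080, plus strand). Of the 4 kinases, Jak1 alone was above 1 CPM per kilobase. Jak1 is also the only kinase of the 4 with a single transcript linked to RefSeq.

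Among the STATs, Stat3, the main factor downstream of interleukin 6, was listed without reads, at the lowest value of the table. A count of 0 over all libraries allows a level of up to 0.0190 CPM by 3 counts, and the exact Poisson interval used for the other genes runs to 0.0234 CPM. Both cover counting error only. Stat5a was at 0.509 CPM, from 56.2 reads, and Stat5b at 3.04 CPM, from 455 reads. Per kilobase, Stat5b stood at 0.554 CPM (0.505 to 0.608) and Stat5a at 0.0917 CPM (0.0693 to 0.119), a ratio of 6.05 with intervals that did not overlap. STAT5A and STAT5B are close relatives in sequence, and how reads that fit both were counted is not given in the sources used here, so the split between them is uncertain. Of the further STATs, Stat6, the factor of interleukin 4 signalling, was at 109 CPM and Stat2 at 4.91 CPM, and Stat4 was listed without reads.

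The 3 STAT genes described here are neighbours on chromosome 11. Stat5b (100780731 to 100850724, minus strand), Stat5a (100859351 to 100885169, plus strand) and Stat3 (100885098 to 100939540, minus strand) lie within 158810 bases. A gap of 8626 bases separates Stat5b from Stat5a, and the ends of Stat5a and Stat3 overlap by 72 bases on opposite strands. The library kit does not mark strand, so reads from those 72 bases cannot be told apart by strand.

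Among the feedback genes, Socs3 rested on 6508 reads over the 12 livers, Cish on 459.8, Socs1 on 357 and Socs2 on 233. Cish, an early target of STAT5, was at 3.07 CPM, Socs1, the inhibitor of interferon signalling, at 2.42 CPM, and Socs2, the inhibitor of growth hormone signalling, at 1.63 CPM. Per kilobase, Socs3 stood at 16.2 CPM (15.8 to 16.6), 15.8 times the level of Cish at 1.02 CPM (0.932 to 1.12). Cish lay above Socs1, at 0.779 CPM (0.700 to 0.864), by intervals that did not overlap. This order depended on the length used: with merged exons Cish stood at 0.455 and Socs1 at 0.779 CPM per kilobase. With the median coding transcript 4 of the 10 genes took another rank, Socs2 coming above Cish at 1.56 against 1.06 CPM per kilobase, and with merged exons 5 did. Jak1 and Socs3 were first and second with each of the 3 lengths. Socs1 lies on chromosome 16 (10782240 to 10785536, minus strand), Socs2 on chromosome 10 (95385362 to 95417180, minus strand) and Socs3 on chromosome 11 (117966079 to 117970047, minus strand). Cish, on chromosome 9 (107296026 to 107302784, plus strand), overlaps the pseudogene Gm17040 by 1167 bases and the antisense gene Gm17041 by 1459 bases, both on the other strand, so its reads cannot be told apart from theirs by strand. Down the order per kilobase, the intervals of Socs1 and Jak2, of Jak2 and Socs2, and of Socs2 and Stat5b (0.664 and 0.554 CPM) overlapped. An overlap of intervals is not a test, and the differences between these neighbours were not tested. The other members of the family, which are not described further, were Socs7 at 10.0, Socs4 at 8.07, Socs6 at 0.0969 and Socs5 at 0.00819 CPM per kilobase.

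**Figure D2:**
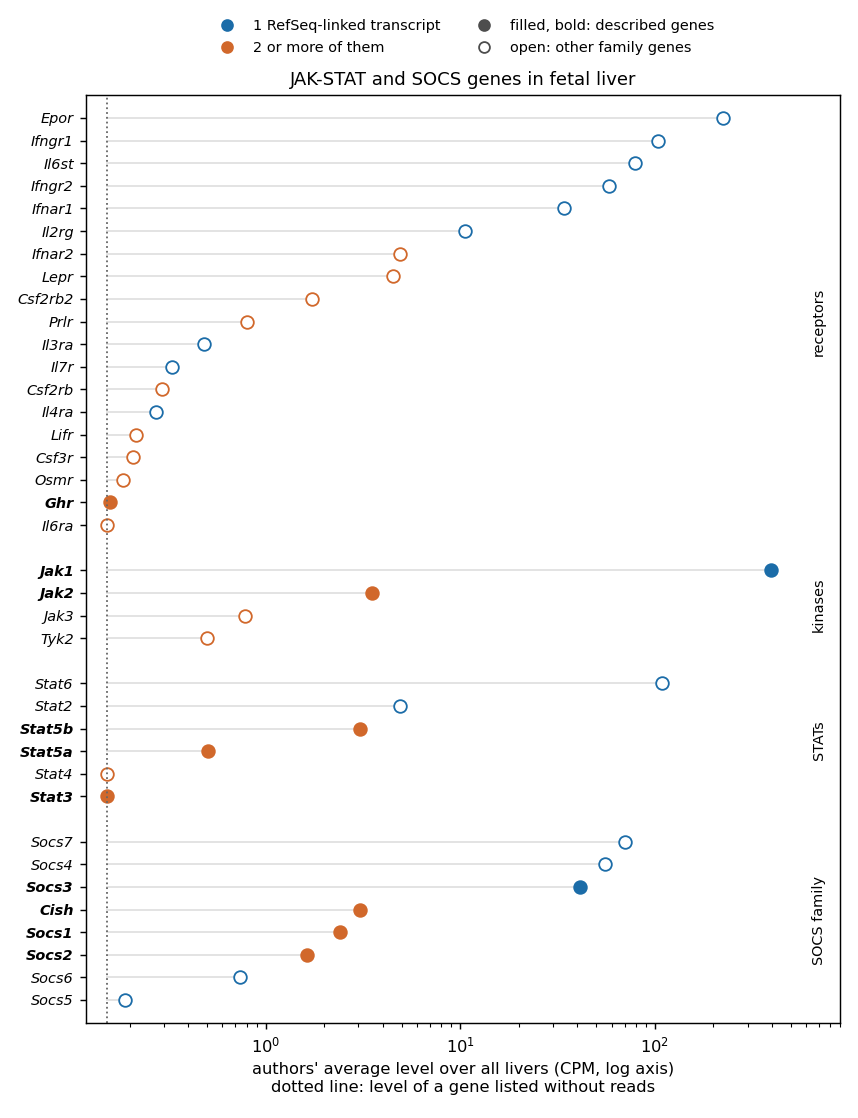
Authors' average level over all livers (CPM, log axis) of receptor, kinase, STAT and SOCS genes, grouped by role, with the dotted line at the level of a gene listed without reads. Filled points and bold names mark the 10 described genes, open points other genes of the same lists, and colour the number of transcripts linked to RefSeq (blue, 1; orange, 2 or more); no point carries an error since the values are pooled over livers. Jak1 and Socs3 are the described genes in blue, and the other 8 lie at 3.54 CPM or less.

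The levels of these genes moved with the number of their transcripts that GENCODE M21 links to RefSeq, the only transcripts counted here. Jak1 and Socs3 have 1 such transcript each, and the other 8 genes have between 2 and 4. The 2 genes with 1 transcript were at 41.5 and 394 CPM, and the 8 with more were between 0.152 and 3.54 CPM, so the groups did not overlap. Among the 49 further genes of the pathway lists, 16 of the 25 with 1 transcript reached 10 CPM, against 2 of the 24 with 2 or more. Their median level per kilobase was 7.95 CPM with 1 transcript and 0.0741 CPM with more. Of the 25 genes with 1 transcript, 6 were under 1 CPM, namely Socs6 at 0.737, Ptpn1 at 0.545, Il3ra at 0.483, Il7r at 0.330, Il4ra at 0.273 and Socs5 at 0.190 CPM. The exceptions with more than 1 transcript were Pim1, a kinase gene that STAT5 switches on, at 36.5 CPM, and Ptpn2, a phosphatase that acts on JAKs and STATs, at 11.9 CPM.

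The same held, as a description, over the table. Of 18651 protein-coding genes with a transcript linked to RefSeq, 31.9% of the 13524 with 1 transcript reached 10 CPM, against 12.1% of the 3309 with 2, 8.27% of the 1125 with 3 and 8.08% of the 693 with 4 or more. Genes listed without reads did not follow the number in this way, at 23.5%, 19.1%, 19.2% and 21.6%. By the share of a gene's exon bases that lie in just 1 transcript of any gene, 5.56% of the 1818 genes with a share under 10% reached 10 CPM, and 31.6% of the 12972 genes with a share of 90% or more did. Jak2 had 83 such bases of 5030 (1.65%), Socs1 123 of 2908 (4.23%), Stat5a 310 of 3968 (7.81%) and Stat5b 803 of 5539 (14.5%). Socs2 had 26.5%, Stat3 28.5%, Ghr 34.3% and Cish 46.7%, whereas Socs3 had 100% and Jak1 99.9%. Among the 8 genes with several transcripts, the level did not follow this share: Jak2 had the lowest share and the highest level per gene. Over the table it did: of genes with 2 or more transcripts, 5.18% of the 1796 with a share under 10% reached 10 CPM. Of the 61 such genes with a share of 90% or more, 34.4% did, beside 31.9% of the genes with 1 transcript. The 2 groups were not alike at other levels. At 100 CPM or more stood 3.28% of the 61 genes and 10.5% of the genes with 1 transcript. Without reads were 11.5% and 23.5%.

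**Figure D3:**
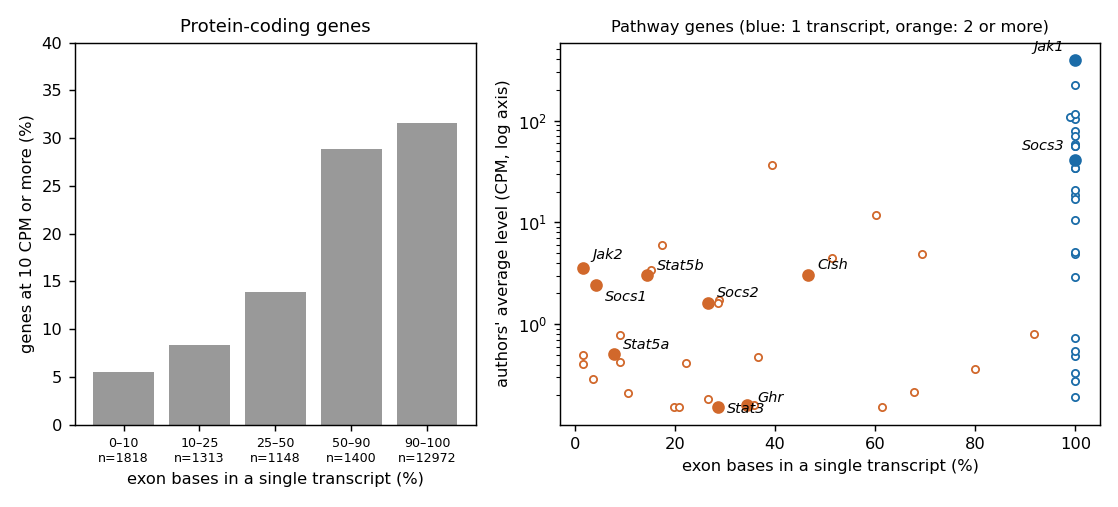
Left, share of protein-coding genes at 10 CPM or more (%), by the share of their exon bases that lie in a single transcript (%), with the number of genes under each bar. Right, authors' average level (CPM, log axis) of the 59 pathway genes against the same share, with the 10 described genes filled and named (blue, 1 transcript linked to RefSeq; orange, 2 or more). The bars run from 5.56% to 31.6%, and Jak1 and Socs3 stand at the right edge above the other described genes.

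Genes that every cell uses and markers of the liver's cell types were set beside these values, the first list being chosen after the data were seen. Of 20 such genes, 9 were under 10 CPM, among them Gapdh at 5.20, Ywhaz at 4.70 and Ptpn11 at 0.405 CPM, each with 2 transcripts, but also Ppia at 0.165 CPM with 1 transcript. Actb, Eef1a1 and Hsp90ab1, with 1 transcript, were at 2581, 5951 and 3294 CPM. In the erythroid list, Slc4a1 was at 12037 and Klf1 at 692 CPM, whereas Alas2, the first enzyme of heme synthesis in red cells, was at 0.704 CPM and has 2 transcripts. In the hepatocyte list all 5 markers, with 1 transcript each, were between 287 and 63314 CPM, and in the endothelial list Pecam1, with 4 transcripts, was listed without reads beside Kdr at 71.0 CPM. In the myeloid list Mpo was at 759 CPM, and Csf1r, with 1 transcript, at 0.684 CPM. All 3 markers of the B lineage, of megakaryocytes and of stellate and mesenchymal cells reached 1 CPM, and so did 3 of the 4 pancreatic acinar markers, with Cela1 at 13.7 CPM. A low level in this table, that of Stat3 and Ghr included, is therefore given only as what is listed. The part that transcript structure or the counting of reads had in these levels was not tested.

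Of the other genes on the lists, 5 of 10 further negative regulators reached 1 CPM, among them Pias1, a SUMO ligase that binds STAT proteins, at 56.0 CPM. Usp18, which limits interferon receptor signalling, was at 17.0 CPM. Of 10 genes that STATs are known to switch on, 8 reached 1 CPM, with a median of 10.4 CPM. The median was 27.4 CPM for the 6 with 1 transcript and 1.91 CPM for the 4 with 2 or more. Over all 30743 genes 33.1% reached 1 CPM, and 51.8% of the genes with reads did. Ccnd2, a cyclin of the G1 phase, was at 117 CPM, Id1 at 41.3 CPM and Tfrc, the transferrin receptor, at 33.8 CPM. Each has 1 transcript, whereas Myc, with 2, was at 0.419 CPM. Igf1, the growth hormone target of the adult liver, was at 0.361 CPM. Igfals, which encodes a subunit of the complex that carries IGF in plasma, was at 21.0 CPM. Igf1 has 5 transcripts, with 80.0% of its exon bases in just 1 of them, and Igfals has 1 transcript.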

How the data were processed

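RNA of 12 whole fetal livers (6 Control, 6 HFD, grouped by the diet label) was sequenced on an Illumina HiSeq. According to the methods and the submitters' processing notes, adapters were removed by the authors with cutadapt 1.2.1. Subread 1.3.6-p1 served for alignment to mm10, biomaRt for gene annotation and edgeR for the diet comparison. The tool that counted reads, its treatment of reads shared by transcripts and the library normalization are not given in the sources used here. The authors deposited 1 table of 30743 genes with 10 value columns. The average log2 CPM over all libraries was used as deposited. The other 9 columns hold a copy of it and the authors' own comparison (log2 and signed fold changes, p-values and adjusted p-values with common and tagwise dispersion) and were not used. The planned edgeR test was not run, since it needs counts of single livers.

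Reads over all livers were estimated as 24 times the level's excess over that of genes without reads, as a share of the latter (prior count 2, 12 libraries). Recovery was checked on simulated libraries with an assumed dispersion of 0.05. It was not exact, and its error is not part of the counting intervals. Levels per kilobase used the longest coding transcript of GENCODE M21 (GRCm38), which matched 21069 symbols. Transcripts were counted if GENCODE links them to RefSeq, and the annotation may differ from that used by the authors. All 10 genes were named, and further genes came from 6 pathway and 8 marker lists. Some genes of these lists are not reported here. The genes and lists were chosen with earlier results of these data known. The order of the genes per kilobase changes with the length used. Alternatives were other lengths, thresholds, ranks and prior counts. The tools were scipy 1.17.1, pandas 2.3.3 and numpy 2.4.6 in Python 3.11.15, with figures by matplotlib 3.10.9.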

Additional observations from a re-analysis of the deposited data

How the results depend on the processing

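Of the 10 genes, 7 reached 1 CPM. With a threshold of 10 CPM, 2 did, and with a threshold of 1 CPM per kilobase, 3 did. Thresholds of 0.5 and 2 CPM, chosen after seeing the data, gave 8 and 6. The 9 genes with reads had a median percentile of 60.8 among genes with reads. This became 52.3 with levels per kilobase, and 24.5 for the 7 genes at 1 CPM or more among the genes at 1 CPM or more, which sets the lower genes aside. With the median coding transcript as length, 3 levels per kilobase left their counting interval and 6 did not, and with merged exons 5 did and 4 did not. The level of Jak1 per kilobase was then 148 and 54.4 CPM, and that of Socs2 1.56 and 0.155 CPM. Without taking off the prior count, Stat5a had 6.68 in place of 4.68 reads per liver, and Ghr 2.08 in place of 0.0828. The planned diet comparison and its alternatives, leaving out each liver included, were not run, since the values used are pooled over livers. No paired analysis was possible because the result comes from no test.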

Other observations

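Divided by the length in just 1 transcript in place of the whole transcript, a scale chosen after seeing the data, the order of the genes changed. Jak2 came to 40.8 CPM per kilobase, next to Jak1 at 80.3, and Socs1 to 18.4, above Socs3 at 16.2. Stat5b came to 3.60, Socs2 to 2.06, Cish to 1.71 and Stat5a to 1.15 CPM per kilobase. Ghr, with 1507 such bases, stayed at 0.00419 CPM per kilobase, and Stat3, with 1776, stayed without reads. All reads of a gene were divided by these bases, though where in the gene they lay is not known. These values are therefore given as a description and not as levels of the genes. Pias2, an inhibitor of STAT signalling with 3 transcripts, was listed with 0.994 reads over the 12 livers, as Ghr was.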
